A study of Homo sapiens with 6 samples.

Results

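The genes described here are 44 components of the DNA replication machinery and of deoxynucleotide synthesis, chosen by gene symbol from an RNA sequencing table of 19475 symbols. They cover origin licensing (5 genes), the replicative helicase (12), the firing kinase and cyclin E (4), the DNA polymerases (8), the sliding clamp, its loader and lagging strand maturation (7), deoxynucleotide enzymes (4), and fork protection with maintenance methylation (4). The libraries came from MH7A cells, fibroblasts of the joint lining in rheumatoid arthritis that were immortalised with SV40 large T antigen, a viral protein that binds p53 and the RB family. One group received TNFα, an inflammatory cytokine, at 10 ng/ml together with red LED light in 3 sessions of 15 min, at a wavelength given in the study's title as 630 nm (TNF plus LED, n = 3). The other received TNFα at 10 ng/ml with no light (TNF, n = 3), so both groups carried the cytokine and no library came from cells without it. Replicates bear the sample numbers 4, 6 and 10 (TNF plus LED, written LED 4, LED 6 and LED 10) and 2, 8 and 14 (TNF, written TNF 2, TNF 8 and TNF 14). No label states that the replicates are separate cultures. The p-values therefore measure only how far these samples spread, part of which may be technical.

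Replication starts at origins that are loaded with a ring-shaped helicase before S phase. The origin recognition complex (ORC), CDC6 and CDT1 load the MCM rings, and geminin (GMNN) blocks CDT1 once S phase has begun. The CDC7 kinase with DBF4, and cyclin E with its kinase, then switch the rings on by recruiting CDC45 and the GINS complex. DNA polymerase alpha with primase starts each strand, polymerase epsilon extends the leading strand and polymerase delta the lagging strand, held on DNA by the PCNA clamp. Ribonucleotide reductase, thymidylate synthase and thymidine kinase supply the building blocks. Many of these genes are known targets of E2F transcription factors, which the RB family holds inactive outside the cell cycle.

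Of the 44 genes, 26 were lower in TNF plus LED than in TNF and none was higher (edgeR quasi-likelihood test, two-sided, Benjamini-Hochberg adjusted p below 0.05). Over all 13794 genes tested, 2.73% were called lower and 2.44% higher, whereas 59.1% of the replication genes were called lower. All 44 genes passed the filter on low counts. Their log2 fold changes (TNF plus LED over TNF) ran from -1.72 for POLA2 to 0.10 for CDC6, with a median of -1.03 against 0.01 over all genes tested, and 43 of 44 were below 0. At an unadjusted p below 0.05, 41 of 44 were lower, against 11.8% of all genes. The genes at least 2-fold lower numbered 23, and the share of all genes at that cut was not counted. In 41 of 44 genes every TNF plus LED library lay below every TNF library, a pattern held by 16.2% of all genes tested; the 3 exceptions were CDC6, POLA1 and POLD2. In bulk RNA, fewer cells in S phase and less of these transcripts per cell cannot be told apart.

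The summed level of the 44 genes was 1238, 1129 and 1245 CPM (counts scaled to a common library total, with TMM factors) in LED 4, 6 and 10, and 1951, 2869 and 2011 CPM in TNF 2, 8 and 14. The groups did not overlap, and TNF 8 stood well above the other TNF libraries. The means were 1204 ± 65.2 CPM in TNF plus LED and 2277 ± 513 CPM in TNF (SD, n = 3 each).

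Library totals were 94615430 to 108074289 deposited units in TNF plus LED and 86000253 to 107139947 in TNF, where a sequenced fragment appeared to be worth about 4 units. The deposited counts of the 44 genes were 260 to 29001 units per library. TNF 8 and LED 6 stood apart from their groups: 33 of 44 genes were highest in TNF 8 and 27 of 44 were lowest in LED 6. The share of all genes with these patterns was not counted. Both libraries also differed from their groups over the whole table. Chi-square per degree of freedom was 136 and 101 for TNF 8 against TNF 2 and TNF 14, and 28.0 between TNF 2 and TNF 14. It was 76.8 and 115 for LED 6 against LED 4 and LED 10, and 27.9 between LED 4 and LED 10. Across all genes, the level in TNF 8 relative to each gene's mean over the 6 libraries rose by 0.26 log2 units per 10% of GC content. That slope lay between -0.09 and -0.01 in the other 5 libraries. The mean includes TNF 8, so the slopes sum to 0 and TNF 8 itself pushes the others below 0. The 10 fibroblast markers listed for the line were at 35337 to 38348 CPM summed in TNF plus LED and 40255 to 43261 CPM in TNF. Of the defining markers of other cells, CD3D, CD3E, CD3G, CD2, CD8A, TYROBP and CDH5 were at 0 in every library, PTPRC reached 0.13 CPM at most and EPCAM 0.092 CPM. Other genes of those lists were detected. Summed levels were 115 to 156 CPM in TNF plus LED and 93.7 to 139 CPM in TNF for the 8 macrophage markers, mostly CD68. They were 58.9 to 67.6 CPM in TNF plus LED and 57.1 to 73.0 CPM in TNF for the 6 T cell markers, all of it CD4. The 5 epithelial markers, mostly KRT18, summed to 37.2 to 55.9 CPM in TNF plus LED and 34.4 to 41.2 CPM in TNF. The 5 endothelial markers, mostly TEK, summed to 67.3 to 83.6 CPM in TNF plus LED and 81.6 to 118 CPM in TNF. TEK itself had 57.2, 56.7 and 75.2 CPM in LED 4, 6 and 10 and 103, 77.7 and 112 CPM in TNF 2, 8 and 14, without overlap. The part of these genes in the results was not tested.

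Without TNF 8, 19 of the 44 genes were called lower (43.2%, against 2.12% of all genes), all of them among the 26, and none higher. The 7 genes that left the list were MCM2 (edgeR adjusted p = 0.0529), MCM3 (0.0819), POLE (0.0530), POLE2 (0.0658), POLD3 (0.0801), UHRF1 (0.0582) and CLSPN (0.0516), and no gene joined it. The median log2 fold change became -0.87, and 36 of 44 differences were smaller in size. Leaving out other single libraries, TNF 2 apart, changed the count more: 1 gene was called without LED 4 (0.236% of all genes), 1 without LED 6 (0.151%), 4 without LED 10 (0.542%), 24 without TNF 2 (3.01%) and 2 without TNF 14 (0.306%). The median stayed between -1.10 and -0.87 in these fits. PRIM1 was called in all 6 of them, POLA2 in 4, MCM4 in 3 and each other gene in 2 at most. By other tools on all 6 libraries, DESeq2 called 36 of 44 lower (6.37% of all genes) and limma-voom 24 (2.45%). Without both TNF 8 and LED 6, 33 genes were called lower (6.54% of all genes were), with a median of -0.75.

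**Figure D1:**
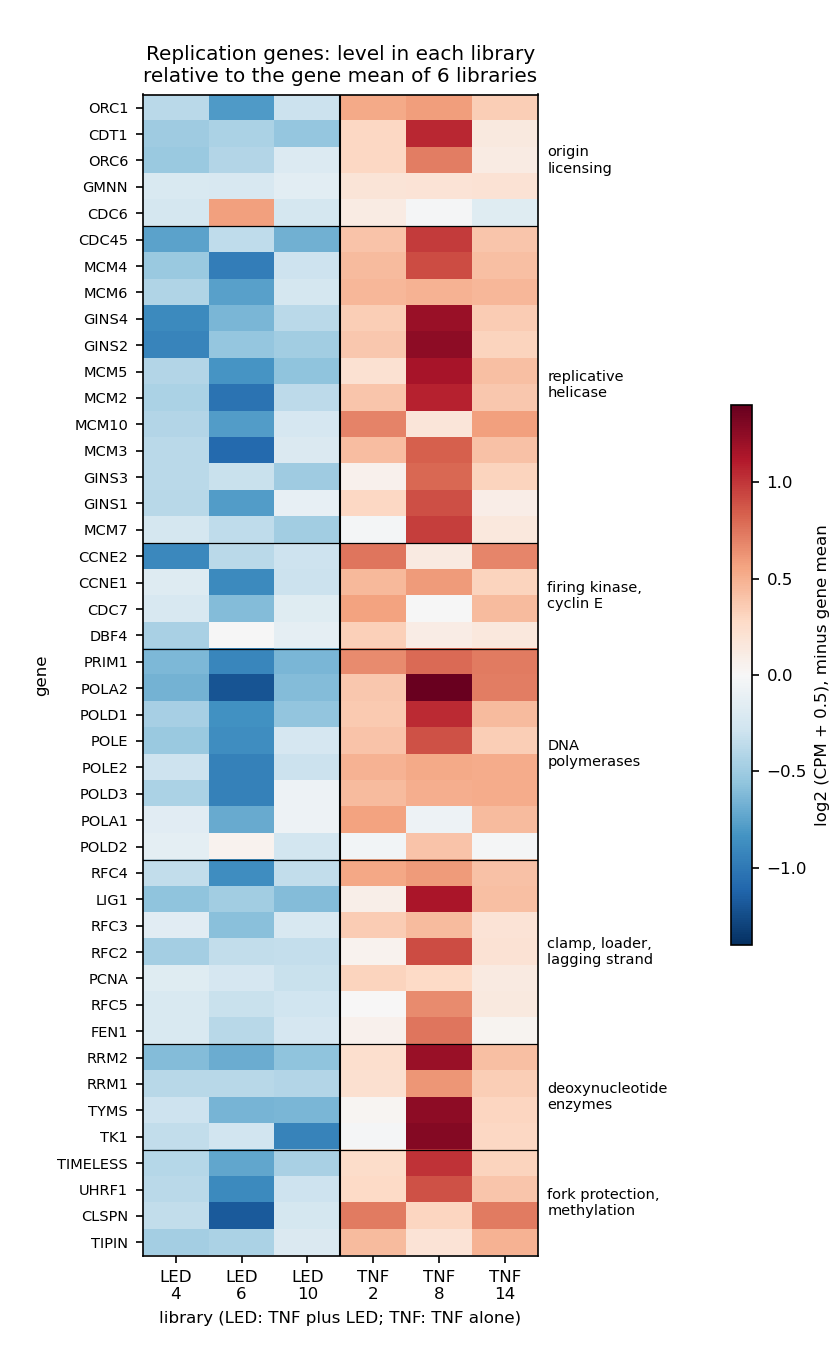
Each row is a replication gene and each column a library, TNF plus LED (LED 4, 6 and 10) on the left and TNF (2, 8 and 14) on the right. Colour gives log2(CPM + 0.5) minus the gene's mean over the 6 libraries. The left columns are below the gene mean for nearly every gene, the CDC6 cell of LED 6 is an exception, and TNF 8 is the highest library for 33 of 44 genes.

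**Figure D2:**
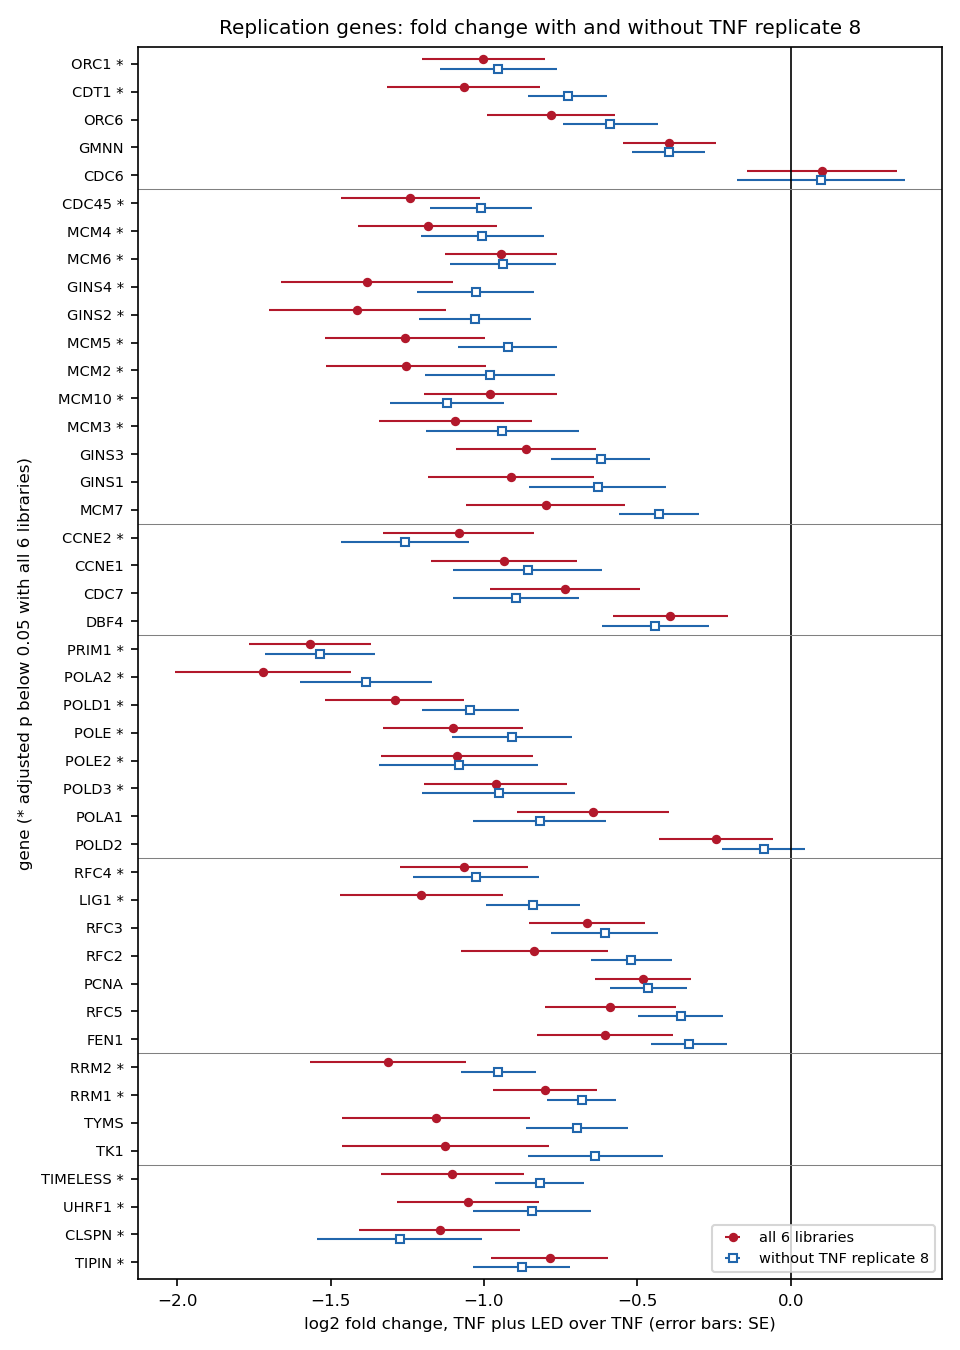
Points give log2 fold changes (TNF plus LED over TNF) with SE bars, for all 6 libraries (filled circles) and without TNF replicate 8 (open squares), and stars mark genes with an edgeR adjusted p below 0.05. The median moves to -0.87 without TNF 8, against -1.03 with all libraries, and CDC6 alone lies right of 0.

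Promoter sequence was read from a given set of RefSeq windows (GRCh38.p14) of 300 bases, 250 before and 50 after the annotated start. That set covered 39 of 44 genes, in 52 windows, and had no entry for MCM4, MCM5, GINS4, CCNE2 and POLD3. The E2F-type letters TTTCCCGC, TTTGGCGC, TTTCGCGC and TTTGCCGC were searched on both strands. At least 1 of these motifs lay in 22 of 39 genes (56.4%), against 3.99% of all 27305 genes with a window and 6.4% of the genes tested here that had one. By window the shares were 44.2% of 52 for the replication genes, 3.31% of all 35116 and 4.67% of those of tested genes. Of 31 matches, 20 began within 100 bases before the start.

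The stretches from 160 bases before to 25 after the start are shown for 5 genes that span the range of response and of E2F-type matches. POLA2 (chr11:65261802-65261986, plus strand) had the largest fold change, PRIM1 (chr12:56752299-56752483, minus strand) the lowest p, and CDC6 (chr17:40287719-40287903, plus strand) the highest p. MCM6 (chr2:135876419-135876603, minus strand) and MCM2 (chr3:127598251-127598435, plus strand) hold overlapping matches on opposite strands. Sequences run 5′ to 3′ on the strand of the gene, and capitals mark every match to the E2F-type motifs searched.
POLA2: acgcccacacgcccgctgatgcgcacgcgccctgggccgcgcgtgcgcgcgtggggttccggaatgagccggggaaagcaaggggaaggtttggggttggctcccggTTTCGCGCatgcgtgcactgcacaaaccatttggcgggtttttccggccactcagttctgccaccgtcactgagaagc
PRIM1: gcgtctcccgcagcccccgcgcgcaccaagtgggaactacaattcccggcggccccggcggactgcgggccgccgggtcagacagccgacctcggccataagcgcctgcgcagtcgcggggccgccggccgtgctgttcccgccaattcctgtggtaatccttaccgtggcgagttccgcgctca
MCM6: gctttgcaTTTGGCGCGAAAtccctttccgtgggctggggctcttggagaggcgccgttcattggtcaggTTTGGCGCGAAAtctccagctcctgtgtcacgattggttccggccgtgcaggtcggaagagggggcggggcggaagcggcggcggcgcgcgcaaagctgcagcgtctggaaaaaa
MCM2: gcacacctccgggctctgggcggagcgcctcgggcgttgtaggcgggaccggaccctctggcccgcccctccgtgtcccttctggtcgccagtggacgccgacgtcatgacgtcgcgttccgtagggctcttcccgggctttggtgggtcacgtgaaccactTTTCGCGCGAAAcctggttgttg
CDC6: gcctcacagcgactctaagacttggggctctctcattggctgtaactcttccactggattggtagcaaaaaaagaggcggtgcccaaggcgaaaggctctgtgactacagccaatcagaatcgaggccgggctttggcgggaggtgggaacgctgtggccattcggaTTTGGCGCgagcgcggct
POLA2 carries 1 match, MCM6 4 in 2 overlapping pairs, MCM2 2 that overlap just after its start, and CDC6 1 just after its start. PRIM1 carries none in its window.

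The size of the difference was similar in genes with and without a match to the exact motifs searched. Genes without a match may hold other forms of E2F-type letters, which were not searched. The 22 genes with a match had a median log2 fold change of -0.998 and 12 calls, and the 17 genes with a window and no match had a median of -0.98 and 9 calls. CDC6, with a match, had the highest p, and PRIM1, without one, the lowest. The log2 fold change of CDC6 was 0.10 ± 0.24, and -0.23 without LED 6. The part of E2F factors in these differences was not tested. Other motifs, on both strands, were searched for comparison. CCAAT, the NF-Y box, was in 57.7% of the replication windows against 34.6% of all windows. GGGCGG, the GC box, was in 78.8% against 45.0% of all windows and 64.4% of those of tested genes. TTTGAA, the core of the CHR element that regulates genes of mitosis, was in 3.85% against 15.2% of all windows and 10.7% of those of tested genes. A GC box on one strand can share letters with TTTCCCGC or TTTGCCGC on the other. A match here is a description of sequence, not of binding.

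**Figure D3:**
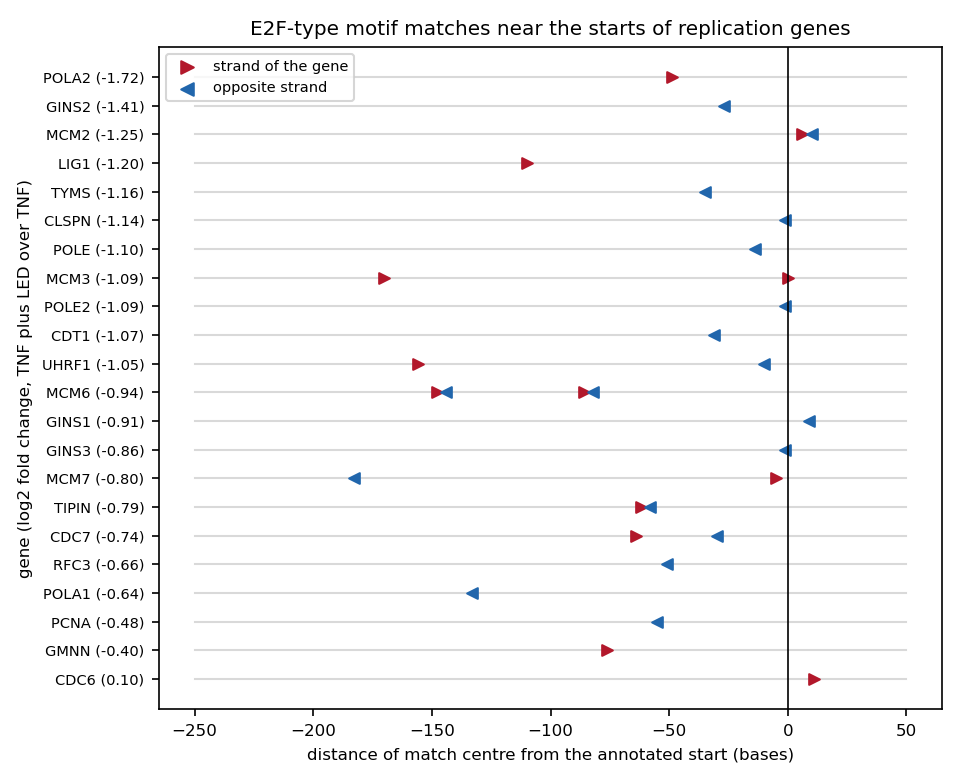
Each row is one of the 22 replication genes with an E2F-type match, ordered by log2 fold change (TNF plus LED over TNF, in brackets), and markers give the distance in bases from the annotated start to the match centre, pointing right on the strand of the gene and left on the opposite strand. Of 31 matches, 20 began within 100 bases before the start, and genes from POLA2 (-1.72) to CDC6 (0.10) carry them.

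Among the origin licensing genes, 2 of 5 were called lower, and CDC6 went against the rest. ORC1, the largest subunit of the origin recognition complex and one that cycles with cell division, had 9.74, 7.18 and 10.3 CPM in LED 4, 6 and 10 and 18.7, 19.4 and 16.4 CPM in TNF 2, 8 and 14. All TNF plus LED libraries lay well below all TNF libraries, with similar values within each group. Its log2 fold change was -1.002 ± 0.20 (SE; edgeR adjusted p = 0.0301), and -0.95 without TNF 8 (adjusted p = 0.0470). CDT1, which delivers MCM rings to origins, had 15.8, 16.5 and 15.4 CPM in TNF plus LED and 27.7, 47.2 and 24.8 CPM in TNF. The TNF plus LED values were tight and the groups did not overlap, but TNF 8 was well above its partners. Its log2 fold change was -1.07 ± 0.25 (edgeR adjusted p = 0.0438) and became -0.73 without TNF 8 (adjusted p = 0.0351). ORC6, another subunit of the recognition complex, had 13.5, 14.6 and 17.03 CPM in TNF plus LED and 23.99, 32.3 and 21.1 CPM in TNF, without overlap, and did not pass (-0.78 ± 0.21, edgeR adjusted p = 0.0619).

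GMNN, the inhibitor of CDT1, had 26.3, 26.2 and 27.6 CPM in TNF plus LED and 34.9, 35.04 and 35.4 CPM in TNF. Each group was tight and they did not overlap, yet the log2 difference was small at -0.40 ± 0.15 (edgeR adjusted p = 0.159). The ratio of CDT1 to GMNN counts was 0.602, 0.627 and 0.557 in TNF plus LED and 0.794, 1.35 and 0.701 in TNF. All TNF plus LED ratios lay below all TNF ratios, with a log2 difference of -0.61 (exact permutation test, two-sided, p = 0.1, the smallest that 3 against 3 allows; 0.4 adjusted over 4 ratios). CDC6, the ATPase that works with ORC and CDT1, had 49.1, 87.01 and 49.1 CPM in TNF plus LED and 63.3, 57.6 and 51.9 CPM in TNF. LED 6 was the highest of the 6 libraries while LED 4 and LED 10 were the lowest, so the groups overlapped. This gave a log2 fold change of 0.10 ± 0.24 (edgeR adjusted p = 0.847), and it turned to -0.23 when LED 6 was left out.

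Of the replicative helicase genes, 9 of 12 were called lower, all 12 were without overlap, and the median log2 fold change was -1.14. CDC45, which joins MCM and GINS into the active helicase, had 8.20, 10.9 and 8.68 CPM in LED 4, 6 and 10 and 18.8, 28.3 and 18.5 CPM in TNF 2, 8 and 14. The TNF libraries were all well above the others, TNF 8 most of all. On the log2 scale it differed by -1.24 ± 0.23 (edgeR adjusted p = 0.0237), and -1.01 without TNF 8 (adjusted p = 0.0303). MCM4, a subunit of the ring, had 72.01, 52.5 and 84.6 CPM in TNF plus LED and 141, 195 and 139 CPM in TNF, and LED 6 was the lowest. Its log2 fold change was -1.18 ± 0.23 (edgeR adjusted p = 0.0273), and -1.005 without TNF 8 (adjusted p = 0.0467). MCM6, another ring subunit, had 30.9, 24.2 and 34.9 CPM in TNF plus LED and 57.5, 58.3 and 57.2 CPM in TNF. Here TNF 8 was level with TNF 2 and TNF 14, and the log2 fold change was -0.94 ± 0.18 (edgeR adjusted p = 0.0273) and -0.94 without TNF 8. MCM7, the ring subunit with the highest p, had 96.4, 89.2 and 81.5 CPM in TNF plus LED and 113, 225 and 127 CPM in TNF. Only TNF 8 was far above the rest, and the difference did not pass (-0.80 ± 0.26, edgeR adjusted p = 0.108).

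The other called helicase genes were GINS2 (-1.41 ± 0.29) and GINS4 (-1.38 ± 0.28), which belong to the complex that bridges helicase and polymerase, the ring subunits MCM5 (-1.26 ± 0.26), MCM2 (-1.25 ± 0.26) and MCM3 (-1.09 ± 0.25), and MCM10 (-0.98 ± 0.22), a factor needed for helicase activation. In GINS2, GINS4 and MCM5, TNF 8 was 1.92, 1.84 and 1.78 times the mean of TNF 2 and TNF 14. MCM10 was the reverse, at 0.72 times that mean, and its log2 fold change was larger in size without TNF 8 (-1.12). GINS1 (-0.91 ± 0.27, edgeR adjusted p = 0.0847) and GINS3 (-0.86 ± 0.23, adjusted p = 0.0619) did not pass. Without TNF 8, 7 of 12 helicase genes were called, with a median of -0.96. AP4M1 lies on the opposite strand and shares 392 exon bases with MCM7, and no source used here gives the strand setting of the counting.

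Of the firing kinase and cyclin E genes, 1 of 4 was called, and all 4 were without overlap. CCNE2, a cyclin E that activates CDK2 at the entry to S phase, had 6.57, 9.70 and 10.3 CPM in LED 4, 6 and 10 and 21.7, 13.97 and 20.7 CPM in TNF 2, 8 and 14. TNF 8 was the lowest TNF library, and the groups stayed apart. Its log2 ratio was -1.08 ± 0.25 (edgeR adjusted p = 0.0408), and -1.26 without TNF 8 (adjusted p = 0.0312). INTS8, on the opposite strand, shares 1629 exon bases with CCNE2, so some counts may belong to it. CCNE1, the other cyclin E, had 7.55, 4.41 and 6.89 CPM in TNF plus LED and 11.96, 13.3 and 10.8 CPM in TNF, without overlap, and narrowly missed the threshold (-0.93 ± 0.24, edgeR adjusted p = 0.0543). CDC7, the kinase that phosphorylates the MCM ring, had 4.82, 3.58 and 5.03 CPM in TNF plus LED and 8.67, 5.71 and 7.98 CPM in TNF, with TNF 8 the closest to the other group (-0.74 ± 0.24, edgeR adjusted p = 0.114). DBF4, its activating subunit, had 11.96, 16.5 and 15.2 CPM in TNF plus LED and 20.97, 17.8 and 18.5 CPM in TNF, the smallest gap between groups of these 4 (-0.39 ± 0.19, edgeR adjusted p = 0.254).

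Neither pair shifted in balance beyond the spread. The ratio of CCNE1 to CCNE2 counts was 1.15, 0.455 and 0.666 in TNF plus LED and 0.551, 0.951 and 0.522 in TNF, and the groups overlapped (log2 difference 0.12, exact permutation p = 0.8, 0.8 adjusted over 4 ratios). The difference was below 0 without LED 4 (-0.24), TNF 2 (-0.0015) or TNF 14 (-0.041). The ratio of CDC7 to DBF4 counts was 0.403, 0.217 and 0.331 in TNF plus LED and 0.413, 0.320 and 0.433 in TNF, also with overlap (log2 difference -0.33, exact permutation p = 0.4, 0.533 adjusted over 4 ratios).

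Of the DNA polymerase genes, 6 of 8 were called lower, and POLA2 and PRIM1 had the largest differences of the 44 genes. PRIM1, the catalytic primase that lays down RNA primers, had 3.92, 3.12 and 3.87 CPM in LED 4, 6 and 10 and 10.3, 11.3 and 10.7 CPM in TNF 2, 8 and 14. Both groups were tight and far apart. Mean levels were 2.96-fold lower in TNF plus LED, with a log2 fold change of -1.57 ± 0.20 (edgeR adjusted p = 0.00617). It was -1.53 without TNF 8 (adjusted p = 0.0168) and lay between -1.70 and -1.43 over 17 alternative fits, in all of which PRIM1 was called. On the same strand, a gene annotated as AC117378.1 shares 362 exon bases with PRIM1, and NACA shares 33. HSD17B6, on the opposite strand, shares 132. PRIM2, counted among the other replication factors, had 12.6, 11.5 and 12.1 CPM in TNF plus LED and 19.2, 24.0 and 17.5 CPM in TNF. The groups did not overlap, but PRIM2 was not called (-0.75 ± 0.19, edgeR adjusted p = 0.0509). POLA2, the regulatory subunit that ties polymerase alpha to primase, had 18.8, 12.7 and 19.4 CPM in TNF plus LED and 39.04, 79.2 and 49.6 CPM in TNF. TNF 8 was the highest and LED 6 the lowest library, and the other libraries were also well separated. The difference on the log2 scale was -1.72 ± 0.29 (edgeR adjusted p = 0.0169) and -1.39 without TNF 8 (adjusted p = 0.0279). A gene annotated as AP000944.2 shares 2012 exon bases with POLA2 on the same strand, and how counts were divided between the pair is uncertain.

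POLA1, the catalytic subunit of polymerase alpha, had a log2 fold change of -0.64 ± 0.25 and was not called (edgeR adjusted p = 0.164). TNF 8 fell among the TNF plus LED libraries for this gene, and the value without it was -0.82 (adjusted p = 0.0821). POLD1, the catalytic subunit of polymerase delta, had 15.3, 11.6 and 14.4 CPM in TNF plus LED and 27.7, 44.4 and 29.1 CPM in TNF. Groups were clearly apart, with TNF 8 highest, and the log2 fold change was -1.29 ± 0.23 (edgeR adjusted p = 0.0203) and -1.04 without TNF 8 (adjusted p = 0.0274). POLD2, the accessory subunit of the same enzyme, had 75.5, 86.3 and 69.5 CPM in TNF plus LED and 81.2, 110.2 and 82.5 CPM in TNF. LED 6 lay among the TNF libraries, and the difference did not pass (-0.24 ± 0.19, edgeR adjusted p = 0.486). The third subunit measured, POLD3, had a log2 fold change of -0.96 ± 0.23 (edgeR adjusted p = 0.0475). The polymerase epsilon genes POLE, its catalytic subunit (-1.10 ± 0.23, edgeR adjusted p = 0.0323), and POLE2 (-1.09 ± 0.25, adjusted p = 0.0408) were lower too. Without TNF 8, only PRIM1, POLA2 and POLD1 of these 8 were called. A gene annotated as AC020909.1 shares 426 exon bases with POLD1 on the same strand.

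In the clamp, clamp loader and lagging strand genes the differences were smaller, with 2 of 7 called and a median of -0.66. RFC4, a subunit of the loader that opens the PCNA ring, had 8.32, 5.64 and 8.33 CPM in LED 4, 6 and 10 and 15.8, 16.5 and 14.4 CPM in TNF 2, 8 and 14. LED 6 was the lowest and the TNF libraries were close to each other, with a log2 fold change of -1.07 ± 0.21 (edgeR adjusted p = 0.0285) and -1.02 without TNF 8 (adjusted p = 0.0470). LIG1, the ligase that seals Okazaki fragments, had 12.96, 13.7 and 12.5 CPM in TNF plus LED and 20.6, 43.5 and 26.2 CPM in TNF. The TNF plus LED values were nearly equal and TNF 8 was far above the other TNF libraries. Its log2 fold change was -1.20 ± 0.27 (edgeR adjusted p = 0.0371) and -0.84 without TNF 8 (adjusted p = 0.0366). RFC3, another loader subunit, had 13.5, 9.94 and 12.9 CPM in TNF plus LED and 19.5, 20.8 and 17.4 CPM in TNF, without overlap (-0.66 ± 0.19, edgeR adjusted p = 0.0772). FEN1, the nuclease that trims the flaps of Okazaki fragments, had 49.8, 44.1 and 49.2 CPM in TNF plus LED and 60.5, 97.6 and 59.6 CPM in TNF. Again only TNF 8 stood far off, and FEN1 did not pass (-0.60 ± 0.22, edgeR adjusted p = 0.141). The remaining genes were not called: the clamp PCNA (-0.48 ± 0.16, edgeR adjusted p = 0.108) and the loader subunits RFC2 (-0.84 ± 0.24, 0.0782) and RFC5 (-0.59 ± 0.21, 0.140).

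Of the deoxynucleotide enzymes, both subunits of ribonucleotide reductase were called lower, and the thymidylate enzymes missed the threshold. RRM2, the small subunit that limits the enzyme in dividing cells, had 80.3, 75.8 and 83.1 CPM in LED 4, 6 and 10 and 145, 285 and 164 CPM in TNF 2, 8 and 14. The TNF plus LED libraries were close together and below every TNF library. This gave a log2 fold change of -1.31 ± 0.26 (edgeR adjusted p = 0.0280) and -0.95 without TNF 8 (adjusted p = 0.0212). RRM1, the large subunit, had 87.7, 88.3 and 86.98 CPM in TNF plus LED and 135, 177 and 146 CPM in TNF. It was nearly constant within TNF plus LED, at 87.7 ± 0.678 CPM against 153 ± 22 CPM in TNF (SD, n = 3 each). Its log2 fold change was -0.80 ± 0.17 (edgeR adjusted p = 0.0331) and -0.68 without TNF 8 (adjusted p = 0.0312). A neighbour annotated as AC007240.1 shares 1077 exon bases with RRM2 on the same strand.

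TYMS, thymidylate synthase, had 44.97, 34.9 and 35.3 CPM in TNF plus LED and 56.4, 132 and 67.97 CPM in TNF. TNF 8 was 2.13 times the mean of TNF 2 and TNF 14, and all TNF libraries were above all others. On the log2 scale it differed by -1.16 ± 0.31 (edgeR adjusted p = 0.0615) and -0.70 without TNF 8 (adjusted p = 0.0648). TK1, the thymidine kinase of the salvage route, had 35.9, 37.7 and 23.7 CPM in TNF plus LED and 45.02, 112 and 55.7 CPM in TNF. TNF 8 was 2.21 times the mean of its partners, the largest such ratio of the 44 genes, while LED 10 was the lowest library. Its log2 ratio was -1.13 ± 0.34 (edgeR adjusted p = 0.0873) and -0.64 without TNF 8 (adjusted p = 0.141). ENOSF1, on the opposite strand, shares 967 exon bases with TYMS.

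RRM2B, the p53-inducible small subunit used outside S phase, varied widely within both groups, at 70.4, 16.2 and 69.2 CPM in TNF plus LED and 16.9, 25.96 and 50.98 CPM in TNF. LED 6 was the lowest library for this gene and lay close to TNF 2. The ratio of RRM2 to RRM2B counts was 1.14, 4.68 and 1.20 in TNF plus LED and 8.58, 11.0 and 3.22 in TNF, with overlap (log2 difference -1.85, exact permutation p = 0.2, 0.4 adjusted over 4 ratios).

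All 4 fork protection and maintenance methylation genes were called lower. TIMELESS, which with TIPIN holds the helicase and polymerase together at the fork, had 27.5, 21.8 and 26.4 CPM in LED 4, 6 and 10 and 43.6, 73.7 and 45.4 CPM in TNF 2, 8 and 14. The groups were apart, TNF 8 highest (-1.10 ± 0.23, edgeR adjusted p = 0.0334; -0.82 without TNF 8, adjusted p = 0.0345). TIPIN had 6.65, 6.83 and 8.13 CPM in TNF plus LED and 13.03, 10.8 and 13.4 CPM in TNF. Here TNF 8 was the lowest TNF library, and the log2 fold change was -0.79 ± 0.19 (edgeR adjusted p = 0.0480) and -0.88 without TNF 8 (adjusted p = 0.0351). CLSPN, the mediator that carries the ATR signal to CHEK1, had 25.4, 14.1 and 27.3 CPM in TNF plus LED and 53.7, 39.9 and 53.7 CPM in TNF. LED 6 was by far the lowest and TNF 8 was low within its group. The difference on the log2 scale was -1.14 ± 0.26 (edgeR adjusted p = 0.0409) and -1.27 without TNF 8 (adjusted p = 0.0516). UHRF1, which brings DNMT1 to newly copied DNA, had 63.4, 44.2 and 67.3 CPM in TNF plus LED and 101, 154 and 108.5 CPM in TNF, again with LED 6 lowest and TNF 8 highest (-1.05 ± 0.23, edgeR adjusted p = 0.0365).

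Per length of merged exons, PCNA was the most abundant of the 44 genes in both groups, at 48.0 CPM per kb in TNF plus LED and 67.0 CPM per kb in TNF. The lowest means were those of GINS4 in TNF plus LED, at 1.27 CPM per kb, and of CDC7 in TNF, at 2.21 CPM per kb. CDC7 had 1.33 CPM per kb in TNF plus LED, and GINS4 had 3.31 CPM per kb in TNF. The 6 ring subunits, which assemble in equal numbers, ran in the same order in both groups, MCM7, MCM4, MCM3, MCM5, MCM2 and MCM6. They were at 24.4, 16.0, 13.8, 9.98, 8.24 and 8.02 CPM per kb in TNF plus LED. In TNF they were at 42.4, 36.4, 29.4, 23.8, 19.6 and 15.4 CPM per kb. Neighbours in this order overlapped between libraries, except MCM7 and MCM4 in TNF plus LED and MCM2 and MCM6 in TNF.

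**Figure D4:**
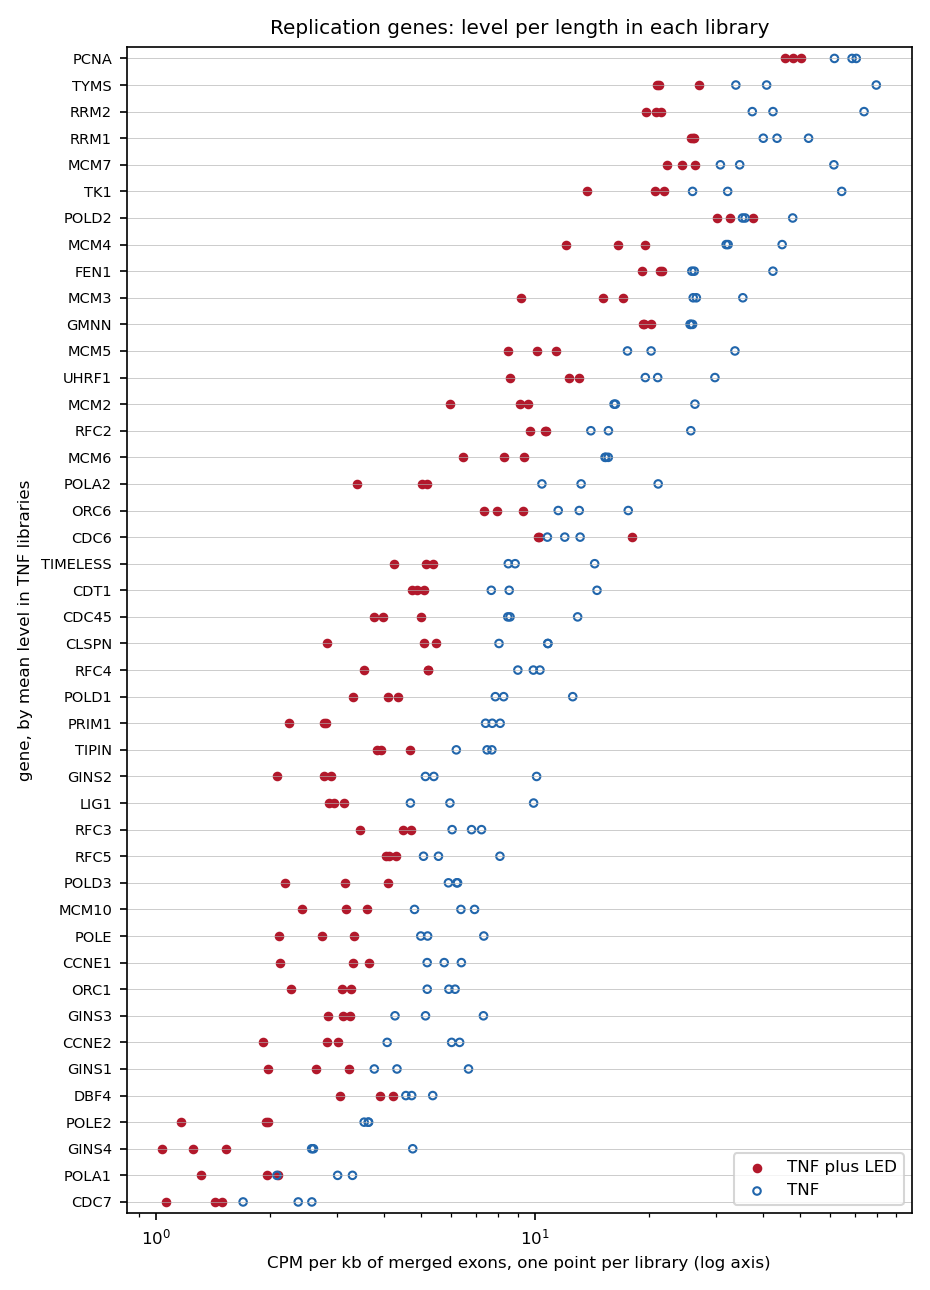
Levels of the 44 replication genes in CPM per kb of merged exons (log axis), 1 point per library, with TNF plus LED as filled circles and TNF as open circles, ordered by the mean level in TNF. TNF plus LED points lie left of TNF points in all genes but POLD2, CDC6 and POLA1; PCNA is highest at 48.0 in TNF plus LED and 67.0 in TNF.

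TNF 8 was not high for all replication genes. Relative to the mean of TNF 2 and TNF 14, 19 of 44 genes were at least 1.5-fold higher in TNF 8 (7.02% of all genes tested were), 23 lay within 1.5-fold, and 2, CCNE2 and POLA1, were at least 1.5-fold lower. Across the 44 genes this ratio followed the GC content of the transcript, with Pearson's r of 0.68 and Spearman's rho of 0.70. These points share the same 3 libraries, and no such relation was seen with transcript length (r = -0.07). The 22 genes of higher GC content had a median ratio of 1.64 and a median log2 fold change of -1.11 (-0.88 without TNF 8). The 22 genes of lower GC content had a median ratio of 1.02 and a median log2 fold change of -0.83 (-0.85 without TNF 8). With the GC trend of each library removed, 32 of 44 genes were called lower (5.12% of all genes were), all 26 among them, with a median of -1.03.

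**Figure D5:**
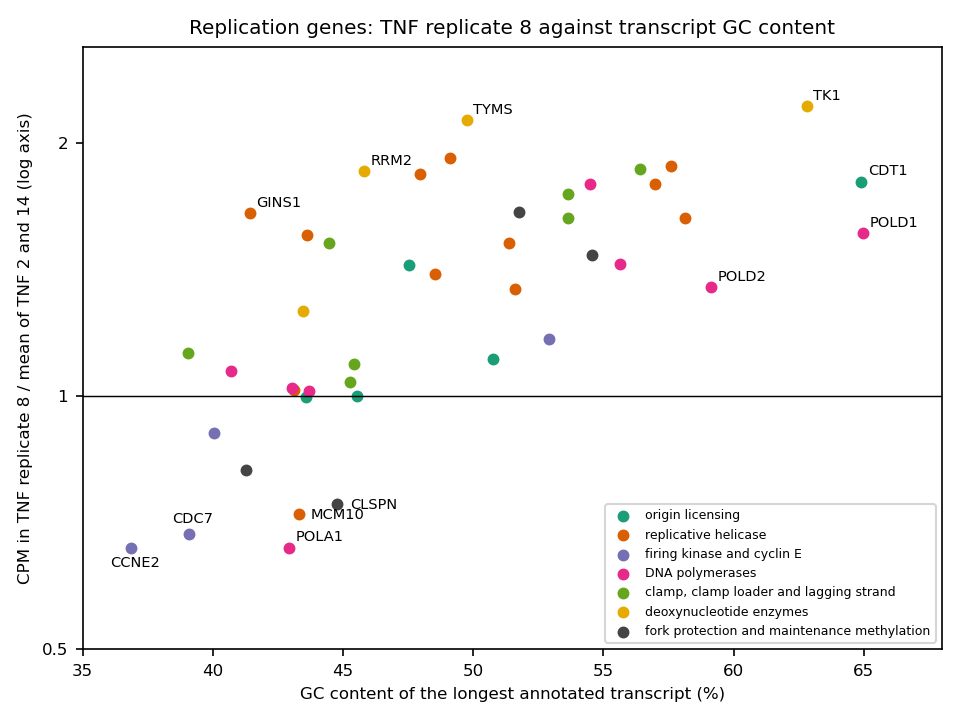
Each point is a replication gene, with the GC content of its longest annotated transcript (%) across and its CPM in TNF replicate 8 over the mean of TNF 2 and 14 up (log axis), coloured by role. Genes of high GC content lie above 1, up to 2.21 for TK1, and CCNE2 and POLA1 lie lowest at 0.66.

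A further 4 lists of the pathway, none containing a member of the 44, were counted in the same fit. In that fit 2.73% of all genes tested were called lower and 2.44% higher. The list with the largest share of genes called was replication-coupled chromatin assembly, the histone chaperones and methylation factors that work behind the fork, with 7 of 8 genes called lower, none higher and a median log2 fold change of -1.04. Its values ran from -1.62 to 0.59, the upper end being ASF1A, which was not called and lay higher in every TNF plus LED library than in any TNF library. ASF1B, a histone chaperone, had 6.36, 6.42 and 8.53 CPM in TNF plus LED and 16.5, 31.2 and 17.6 CPM in TNF (-1.62 ± 0.28, edgeR adjusted p = 0.0181). NASP, a chaperone of the histone reserve, had 60.7, 54.3 and 57.3 CPM in TNF plus LED and 104, 103 and 103 CPM in TNF, with TNF 8 equal to its partners (-0.85 ± 0.15, edgeR adjusted p = 0.0222). CHAF1B, of the CAF-1 complex, and TONSL, a reader of new histones, had log2 fold changes of -1.37 ± 0.25 and -1.01 ± 0.20 (edgeR adjusted p = 0.0240 and 0.0288). Without TNF 8, 6 of 8 were called lower (2.12% of all genes were).

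Of 25 other replication factors, 5 were called lower and none higher, with a median of -0.47. The 4 with the lowest p were TICRR, the partner of TOPBP1 in origin firing (-1.14 ± 0.23, edgeR adjusted p = 0.0302), DNA2, a helicase-nuclease (-1.01 ± 0.22, 0.0339), and CHTF18 (-1.06 ± 0.24, 0.0385) and DSCC1 (-0.95 ± 0.22, 0.0405), both of the alternative clamp loader tied to cohesion. Of 27 other nucleotide synthesis enzymes, 1 was called lower, against 2.73% of all genes tested, so the count does not set this list apart. That gene was SHMT1, the cytosolic serine hydroxymethyltransferase that feeds thymidylate synthesis. It had 2.94, 3.32 and 3.56 CPM in TNF plus LED and 7.38, 15.9 and 7.002 CPM in TNF, TNF 8 being far highest (-1.62 ± 0.33, edgeR adjusted p = 0.0313), and the median of that list was -0.29. Of 9 replication stress kinases and effectors, CHEK1, the checkpoint kinase downstream of ATR, had 14.6, 15.8 and 14.5 CPM in TNF plus LED and 24.7, 26.5 and 30.9 CPM in TNF (-0.87 ± 0.17, edgeR adjusted p = 0.0283). WEE1, the kinase that restrains CDK activity, had 18.4, 20.02 and 20.2 CPM in TNF plus LED and 31.5, 32.4 and 30.5 CPM in TNF (-0.69 ± 0.16, edgeR adjusted p = 0.0405), and the other 7 of that list were not called (median of the list -0.03). Over the 4 lists 15 genes were called lower and 0 higher. The count called lower was 0 without LED 4 (0.236% of all genes), 1 without LED 6 (0.151%) and 2 without LED 10 (0.542%). It was 14 without TNF 2 (3.01%), 11 without TNF 8 (2.12%) and 2 without TNF 14 (0.306%).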

How the data were processed

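RNA was measured in 6 MH7A libraries, 3 of TNF plus LED and 3 of TNF, with groups taken from the labels. Per the labels' protocols, total RNA was depleted of ribosomal RNA with probes and reverse transcribed from random primers. Without roles, the submitters' processing notes list HISAT2, StringTie, bcl2fastq 2.0, limma and DESeq2, and also mm10, a mouse build, although the samples are human. The human build and the counting strand were not named in any source used here. The deposited table holds estimated counts per gene symbol as whole numbers. Of values from 1 to 7, 41.8% equalled 4, so a fragment is worth about 4 units, and a deposited count has the precision of its value over 4. No value needed rounding, and 0 sample columns were left unused.

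The whole table was tested with edgeR 4.0.16 in R 4.3.3 (quasi-likelihood test, robust, filterByExpr, TMM, no covariate, two-sided, Benjamini-Hochberg adjustment over all 13794 genes, threshold 0.05). CPM used the TMM-scaled library sizes. The SE is the size of the log2 fold change divided by the square root of F. The 4 ratios of counts were tested by exact permutation over samples. The test procedure was tested on simulated data. Chi-square per degree of freedom between libraries of a group was 27.9 to 136, so none was a repeat deposit. Lengths, GC content and overlaps came from GENCODE 29. Alternatives were other filters, scalings, DESeq2 1.42.0, limma-voom (limma 3.58.1), counts divided by 4, libraries left out and, added after the data were seen, removal of a loess GC trend per library.

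The genes, lists and rules were chosen with earlier results of these data known. In each role group, values in every library were given for the 3 genes with the lowest p and the 1 with the highest, or for all where there were 4. Up to 4 called genes with the lowest p were named in each other list, with PRIM2 added beside PRIM1.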

Additional observations from a re-analysis of the deposited data

How the results depend on the processing

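No alternative called any of the 44 replication genes higher. Of 748 comparisons of a gene with its value under an alternative, 598 kept direction and side of the threshold, 118 lost the call, 30 gained it and 2 changed sign. The sign changes were in CDC6, which ranged from -0.23 to 0.25 over single omissions and was -0.23 without both TNF 8 and LED 6. Genes called over the whole table numbered 713, with 1753 by DESeq2, 1669 without both libraries, 1270 with the GC trend removed and 80 to 737 over single omissions. Replication genes called lower numbered 26, with 36 by DESeq2 (6.37% of all genes), 24 by limma-voom and 1 to 24 over single omissions. The 19 called without TNF 8 became 33 when LED 6 was left out as well. The median log2 fold change was -0.75 without both libraries and -1.10 to -0.87 over single omissions, and the log2 ratio of the summed level, -0.92 with all libraries, was -0.67 and -1.02 to -0.72. The 4 other lists had 15 genes called lower. DESeq2 gave 26 (6.37% of all genes), and the fit without both libraries 27 (6.54%). Single omissions gave 0 to 14 (0.151% to 3.01%). The log2 difference in CCNE1 over CCNE2 ranged from -0.24 to 0.43 over single omissions, its sign turning without LED 4, TNF 2 or TNF 14, and was 0.71 without both libraries. The share of replication windows with an E2F-type match was 21.2% on the strand of the gene alone, by construction lower. The cause of the other shifts was not tested. No paired analysis was possible because the groups share no replicate numbers. Groups of 3 set the precision, since the exact tests cannot go below 0.1. Counts came from reads without molecular identifiers. The SEs and p-values of the fits include the spread between libraries, part of which may be technical.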

Other observations

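Some genes of the wider replication lists ran against the general direction, although none of them passed the test. They were chosen after their values were seen. RAD9A, a subunit of the checkpoint clamp, had 14.1, 30.1 and 11.6 CPM in LED 4, 6 and 10 and 7.45, 11.8 and 7.13 CPM in TNF 2, 8 and 14, with LED 6 far highest and TNF 8 level with LED 10 (1.08 ± 0.36, edgeR adjusted p = 0.118). HUS1, another subunit of that clamp, had 26.7, 26.1 and 24.7 CPM in TNF plus LED and 21.9, 19.04 and 18.6 CPM in TNF, without overlap (0.38 ± 0.16, edgeR adjusted p = 0.203). The third subunit, RAD1, went with the general direction. It had 24.5, 18.8 and 26.2 CPM in TNF plus LED and 30.3, 32.8 and 28.6 CPM in TNF (-0.40 ± 0.18, edgeR adjusted p = 0.230). ASF1A, the histone chaperone related to ASF1B, had 23.7, 27.7 and 25.3 CPM in TNF plus LED and 18.7, 14.3 and 17.97 CPM in TNF, also without overlap (0.59 ± 0.18, edgeR adjusted p = 0.0885). PPAT, a nucleotide synthesis enzyme, had 36.3, 49.9 and 35.8 CPM in TNF plus LED and 32.03, 16.9 and 27.97 CPM in TNF. Its groups did not overlap either (0.67 ± 0.26, edgeR adjusted p = 0.161). The DESeq2 alternative called 2 genes of these lists higher, 1 in the chromatin assembly list and 1 in the stress kinase list. Over the whole table that tool called 874 of 13794 genes higher.

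ATR, the kinase that responds to stalled forks, had 42.96, 30.3 and 45.8 CPM in TNF plus LED and 47.8, 19.5 and 43.7 CPM in TNF. TNF 8 held less than any other library for ATR, whereas it was the highest library for most of the 44 replication genes. The log2 fold change was 0.10 ± 0.32 (edgeR adjusted p = 0.885).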
